A study of Mus musculus with 9 samples.

Results

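Inflammasome genes were followed here in whole mouse lung during ventilator-induced lung injury (VILI), as 8 of the 27203 gene IDs in the table. The 8 were taken by symbol and function, not by a measured value, but with earlier results of these data known: the sensors Nlrp3, Nlrp12, Nlrc4 and Aim2, the adaptor Pycard, the proteases Casp1 and Casp4, and the pore former Gsdmd. RNA-Seq had been run on lungs of C57BL/6 mice, with 3 mice in each of 3 groups. The mice were males aged 6 to 8 weeks. Control mice were intubated but not ventilated. VILI mice were intubated and put on a ventilator over 4 hours, at a high tidal volume of 20 ml/kg, breathing room air without end-expiratory pressure, under ketamine and xylazine with the muscle relaxant pancuronium. Lungs of VILI 0 hours mice were taken when ventilation ended and those of VILI 6 hours mice after 6 more hours of recovery. The study describes anesthesia before intubation for its mice without separating the groups. No group was ventilated at a low tidal volume, so the effects of ventilation as such and of high stretch cannot be told apart. The labels give no time for the control mice, so hours under anesthesia and hours of recovery cannot be told apart from ventilation either. Levels are given as FPKM (fragments scaled to the length of the transcript and to the size of the library) summed over the rows of a gene, a scale that corrects for length and so allows genes to be compared.

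Inflammasomes are protein platforms that cells assemble in the cytosol when a sensor meets signs of infection or damage. NLRP3 responds to many kinds of membrane and ion disturbance, NLRC4 to bacterial flagellin and secretion system parts through the NAIP receptors, and AIM2 to DNA in the cytosol, while NLRP12 has been described both as a sensor and as a brake on NF-κB signaling. The sensors recruit caspase 1, mostly through the adaptor ASC (encoded by Pycard), and the caspase then cuts pro-IL-1β and pro-IL-18 and the pore-forming protein gasdermin D. Casp4 of the mouse encodes the protein long known as caspase 11, which binds bacterial lipopolysaccharide in the cytosol and cuts gasdermin D without a sensor of the NLR family. Assembly and cleavage are events of proteins, which RNA levels do not measure.

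The source tissue matched its label: the summed FPKM of 6 lung epithelial markers was between 34983 and 51745 in the 9 libraries. Most of it came from Scgb1a1 (22061 to 39012 FPKM) and Sftpc (9683.5 to 12504 FPKM), so the sum says little about the others. Over the 19378 genes tested, libraries of the control group had a mean Spearman correlation of 0.988 with each other. The VILI 6 hours libraries were less alike. Each had a higher mean correlation with the VILI 0 hours group than with its own: 0.971 against 0.954 for replicate 1, 0.975 against 0.968 for replicate 2 and, by a narrow margin, 0.959 against 0.958 for replicate 3. Of the 3, only replicate 1 was also closer to control (0.978) than to its own group, and replicate 3 lay farthest from control among all libraries, at 0.942. For the inflammasome genes that changed at 6 hours, values are therefore also given without replicate 1 and without replicate 3. In bulk tissue, fewer cells of a type and less RNA per cell cannot be told apart, and the same holds for more.

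The 8 genes lie on 6 chromosomes of the GRCm38 mouse genome. Nlrp3 (ENSMUSG00000032691) is at chr11:59541568-59566956 on the plus strand, Nlrp12 (ENSMUSG00000078817) at chr7:3218784-3249740 on the minus strand, Nlrc4 (ENSMUSG00000039193) at chr17:74425438-74459142 on the minus strand and Aim2 (ENSMUSG00000037860) at chr1:173350879-173466040 on the plus strand. Pycard (ENSMUSG00000030793) is at chr7:127989708-127993867 on the minus strand and Gsdmd (ENSMUSG00000022575) at chr15:75862327-75867408 on the plus strand. Casp1 (ENSMUSG00000025888), at chr9:5298517-5307265, lies just upstream of Casp4 (ENSMUSG00000033538), at chr9:5308828-5336783, with both on the plus strand. Some of these genes share sequence with others. In the annotation Nlrc4 overlaps the processed pseudogene CT033749.1 on its own strand, Aim2 overlaps Cadm3 and Pycard overlaps Gm45205 on the opposite strand, and 7 miRNA genes of the Mir291a to Mir295 cluster lie within Nlrp12. Of the 7 miRNA genes, 1 is on the strand of Nlrp12 and 6 are on the opposite one. Reads could be shared between genes on the same strand whatever the kit, and between genes on opposite strands if the library did not keep the strand, on which the sources differ.

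Promoters are shown for the 3 genes that changed (Nlrp12, Nlrp3 and Casp4) and for Casp1, the neighbour of Casp4 that did not pass the test. Each sequence is the 250 bases before an annotated start in RefSeq (GRCm38.p6), which held an entry for 7 of the 8 genes. The Nlrp12 sequence is chr7:3249741-3249990, read on the minus strand. The Nlrp3 sequences, from the plus strand, are chr11:59541319-59541568 before the upstream start and chr11:59542436-59542685 before the downstream start. The Casp4 sequence, before the first of 2 annotated starts that lie close together, is chr9:5308599-5308848 and the Casp1 sequence is chr9:5298267-5298516, both from the plus strand. Capitals mark matches, on either strand, to the binding motifs of NF-κB, AP-1 (TGANTCA), PU.1 (GAGGAA), C/EBP (TTGCNNAA) and STAT factors (the GAS element, TTCNNNGAA) and to the interferon-stimulated response element.
Nlrp12: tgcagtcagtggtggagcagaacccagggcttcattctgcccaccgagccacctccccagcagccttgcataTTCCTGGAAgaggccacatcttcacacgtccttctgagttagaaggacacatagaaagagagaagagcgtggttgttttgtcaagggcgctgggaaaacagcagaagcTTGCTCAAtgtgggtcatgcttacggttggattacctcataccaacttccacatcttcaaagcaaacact
Nlrp3 upstream start: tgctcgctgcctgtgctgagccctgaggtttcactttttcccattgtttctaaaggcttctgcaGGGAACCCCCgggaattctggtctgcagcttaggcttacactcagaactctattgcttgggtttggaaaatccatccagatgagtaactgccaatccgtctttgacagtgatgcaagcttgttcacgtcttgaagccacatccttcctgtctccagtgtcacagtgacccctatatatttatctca
Nlrp3 downstream start: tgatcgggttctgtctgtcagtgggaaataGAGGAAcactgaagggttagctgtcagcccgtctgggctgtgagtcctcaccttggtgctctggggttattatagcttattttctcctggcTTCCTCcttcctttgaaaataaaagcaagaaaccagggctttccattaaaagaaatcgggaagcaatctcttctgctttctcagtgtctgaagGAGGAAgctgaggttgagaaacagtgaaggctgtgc
Casp4: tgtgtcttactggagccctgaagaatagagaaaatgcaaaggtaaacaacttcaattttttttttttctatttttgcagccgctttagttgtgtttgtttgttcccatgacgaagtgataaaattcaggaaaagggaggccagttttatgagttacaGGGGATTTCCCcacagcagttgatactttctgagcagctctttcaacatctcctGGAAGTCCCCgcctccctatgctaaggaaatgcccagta
Casp1: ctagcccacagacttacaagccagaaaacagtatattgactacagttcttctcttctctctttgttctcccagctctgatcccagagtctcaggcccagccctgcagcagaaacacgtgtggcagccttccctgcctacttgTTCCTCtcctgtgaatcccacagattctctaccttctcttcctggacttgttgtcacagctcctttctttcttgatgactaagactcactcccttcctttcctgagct

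The Casp4 promoter held 3 matches to the NF-κB motif. Of these, 2 overlap in the run GGGGATTTCCC, beginning 93 and 92 bases before the start, and the other begins 39 bases before it, on the opposite strand. In the window of the downstream Casp4 start (chr9:5308610-5308859) the same matches lie 104, 103 and 50 bases before the start. The Casp1 promoter held no match to that motif and 1 to PU.1, 108 bases before the start. Nlrp3 had an NF-κB match 186 bases before its upstream start and 3 PU.1 matches 220, 129 and 36 bases before its downstream start. Nlrp12 had a GAS match 178 bases and a C/EBP match 70 bases before its start. Of 32851 RefSeq promoter windows of the same length, 7.25% held the NF-κB motif, 6.75% AP-1, 23.3% PU.1, 9.56% C/EBP, 7.02% GAS and 2.98% the interferon-stimulated element. A match describes the letters only, and no binding was measured.

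Among the 8 inflammasome genes, the changes lay in 2 of the sensors and in Casp4, while Pycard, Casp1 and Gsdmd passed the test in no comparison when all libraries were used. Nlrp12 and Nlrp3 rose at VILI 0 hours and at VILI 6 hours, Casp4 rose at VILI 6 hours, and 0 of the 8 genes fell with all 9 libraries in the fit. A gene was called when its unadjusted P in limma was under 0.05, the threshold of the study, and P values adjusted by Benjamini-Hochberg over all 19378 genes are given beside it. By that rule 2 of 8 genes were called in VILI 0 hours vs control, where 16.2% of all genes tested were called (6.81% upward and 9.35% downward). In VILI 6 hours vs control 3 of 8 were called, against 20.4% of all genes (8.17% upward and 12.2% downward). Between the 2 VILI groups the count was 1 of 8, against 10% of all genes (5.06% upward and 4.94% downward). After adjustment only Nlrp12 had a p under 0.05, in both comparisons with control, where 0.284% and 0.702% of all genes did. Nlrp12 passed the filter on low levels only through its VILI libraries. With no such filter its adjusted p was 0.0544 at VILI 0 hours and 0.0363 at VILI 6 hours. Between the VILI groups 0 of all genes tested had an adjusted p under 0.05. The median log2 fold change of the 8 genes was 0.02, 0.13 and 0.13 in the 3 comparisons, beside −0.07, −0.09 and −0.02 over all genes tested. Centring each library on its median moved that median of all genes to 0.05, 0.04 and −0.01. All calls against control then went from 1319 upward and 1811 downward to 1944 and 1232 at VILI 0 hours, and from 1583 and 2369 to 2270 and 1640 at VILI 6 hours, while the same inflammasome genes were called. The values below zero of Nlrc4, Aim2 and Gsdmd at VILI 0 hours turned to values just above it (0.00106, 0.00615 and 0.0592).

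**Figure D1:**
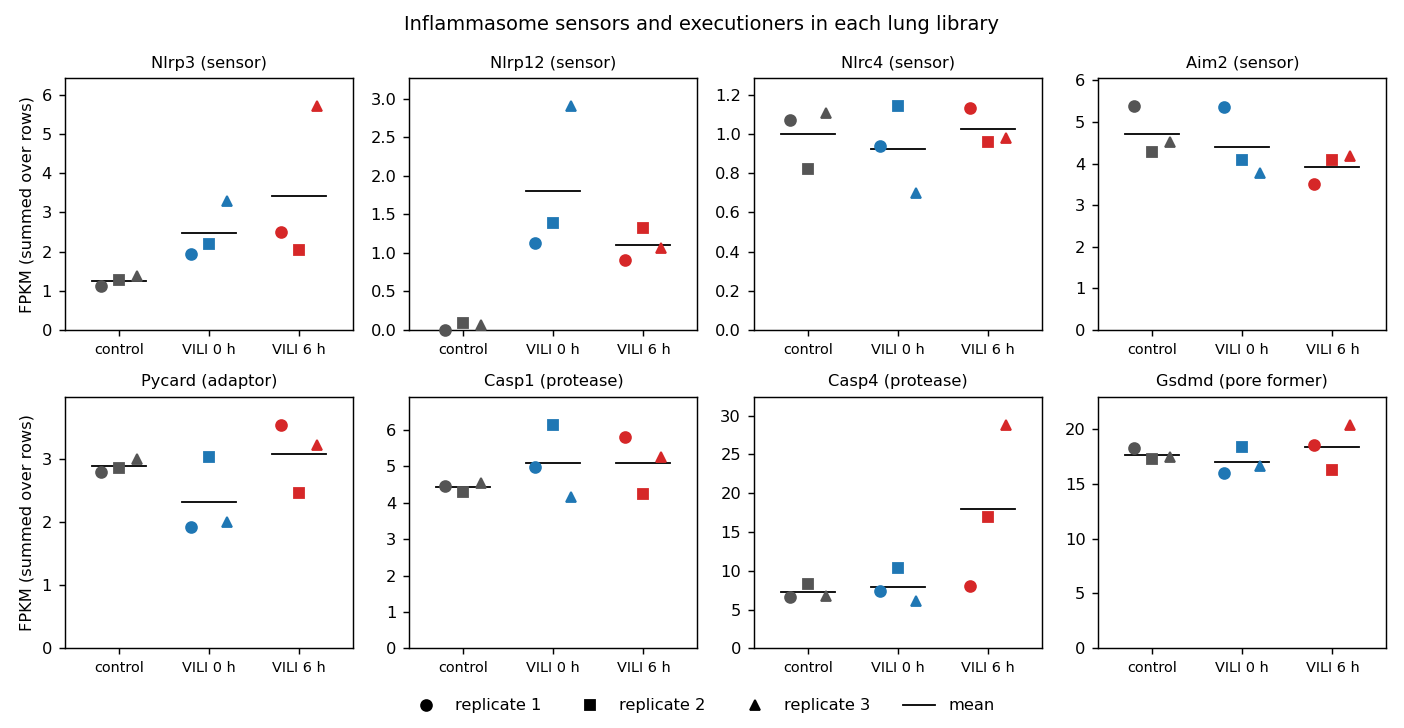
FPKM of the 8 genes (y axis, each panel from 0) in the 9 libraries, grouped on the x axis as control and the 2 VILI groups, with 1 point per mouse (its shape gives the replicate) and a line at the mean of 3, left out for Nlrp12 in control where 1 library is listed at 0. The VILI points of Nlrp12 and Nlrp3 lie above their controls, Casp4 is raised in VILI 6 hours replicates 2 and 3, and Gsdmd stays between 15.98 and 20.342 FPKM.

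**Figure D2:**
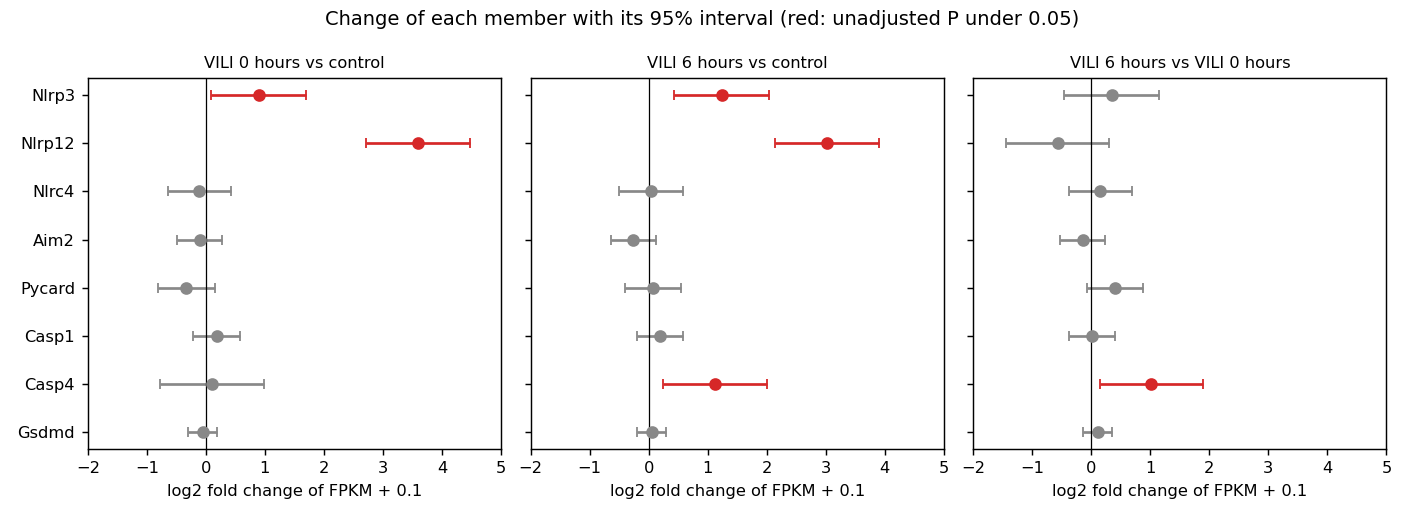
Log2 fold change of FPKM + 0.1 (x axis) with its 95% interval from limma for each of the 8 genes (y axis) in the 3 comparisons, red where the unadjusted P was under 0.05. Nlrp12 and Nlrp3 lie to the right of 0 in both comparisons with control, Casp4 at VILI 6 hours only, and the intervals of the other 5 genes include 0 in each panel.

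Nlrp12, a sensor found mainly in myeloid cells, showed the largest change of the 8 against control with 0.1 FPKM added. It was listed at 0, 0.0866 and 0.0677 FPKM in the control mice, and had 1.12, 1.39 and 2.90 FPKM in the VILI 0 hours mice and 0.906, 1.32 and 1.07 FPKM in the VILI 6 hours mice. No VILI library overlapped a control library. Nlrp12 was thus at or near 0 in control lung and overlapped the level of Nlrc4 after ventilation. On the log2(FPKM + 0.1) scale it rose by 3.59 at VILI 0 hours (SE 0.39, 95% interval 2.71 to 4.47, adjusted p = 0.0204 in limma) and by 3.02 at VILI 6 hours (95% interval 2.14 to 3.90, adjusted p = 0.0217). The size depends on the constant added, since the control values lie below it. With 0.01 or 1 added in its place, and over the other alternatives, the change ran from 1.36 to 5.30 at VILI 0 hours and from 0.99 to 4.70 at VILI 6 hours. Without VILI 6 hours replicate 1 the change at 6 hours was 3.14 (adjusted p = 0.00258), and without VILI 6 hours replicate 3 it was 3.03 (adjusted p = 0.0511). Of all 19378 genes, 4512 had an adjusted p under 0.05 in the fit without replicate 1 and 17 in that without replicate 3, against 136 with all libraries. Between the VILI groups the difference was −0.57 (95% interval −1.45 to 0.31, adjusted p = 0.668), and their ranges overlapped. Nlrp12 entered the test through its VILI libraries, because its control values lie under the minimum of 0.1 FPKM.

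Nlrp3, the best studied inflammasome sensor, was at 1.13, 1.27 and 1.37 FPKM in control. It had 1.93, 2.20 and 3.30 FPKM in the VILI 0 hours mice and 2.50, 2.04 and 5.71 FPKM in the VILI 6 hours mice. Each VILI library was above the highest control, and VILI 6 hours replicate 3 was the highest of the 9. The mean rose from 1.26 ± 0.119 FPKM in control (SD, n = 3) to 2.48 ± 0.726 FPKM in VILI 0 hours and 3.42 ± 2.0 FPKM in VILI 6 hours. The log2 fold change against control was 0.89 at VILI 0 hours (SE 0.36, adjusted p = 0.259) and 1.24 at VILI 6 hours (SE 0.36, adjusted p = 0.123). Between the times it was 0.34, with a 95% interval of −0.46 to 1.14. The call at VILI 0 hours was lost in 7 of 18 alternatives, including the fit without VILI 0 hours replicate 3 (0.68), whereas the call at VILI 6 hours was made in each of the 18. Without VILI 6 hours replicate 1 the change at 6 hours was 1.38 (adjusted p = 0.0349), in a fit where 4512 of 19378 genes had an adjusted p under 0.05. Without VILI 6 hours replicate 3 it was 0.80 (adjusted p = 0.222), in a fit where 17 did.

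Nlrp12 and Nlrp3 were thus above control without overlap at both times, 2 of 8 genes each time. Of all genes tested, 12% were above control without overlap at VILI 0 hours and 9.64% at VILI 6 hours. For 3 against 3 libraries the two-sided exact permutation test then gives p = 0.1, below which it cannot go.

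The other sensors gave no call. Aim2, the DNA sensor, had 5.37, 4.27 and 4.52 FPKM in the control mice, 5.36, 4.08 and 3.76 FPKM in the VILI 0 hours mice and 3.50, 4.09 and 4.19 FPKM in the VILI 6 hours mice. The VILI 6 hours libraries lay just under the lowest control, as did those of 15% of all genes tested. Its log2 fold change was −0.11 at VILI 0 hours and −0.26 at VILI 6 hours (95% interval −0.64 to 0.13, adjusted p = 0.406). Nlrc4, the receptor that joins the NAIP proteins, had 1.07, 0.820 and 1.11 FPKM in the control mice, 0.938, 1.14 and 0.697 FPKM in the VILI 0 hours mice and 1.13, 0.960 and 0.980 FPKM in the VILI 6 hours mice. The groups overlapped, with log2 fold changes of −0.11 (95% interval −0.65 to 0.42) and 0.04 (−0.50 to 0.58). Between them, these intervals take in folds from 0.637 to 1.49.

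Of the shared machinery, the adaptor gene Pycard had 2.78, 2.85 and 3.00 FPKM in the control mice, 1.93, 3.03 and 1.99 FPKM in the VILI 0 hours mice and 3.54, 2.45 and 3.22 FPKM in the VILI 6 hours mice. VILI 0 hours replicates 1 and 3 were below the controls while replicate 2 was just above them, so the groups overlapped. Its log2 fold change was −0.33 at VILI 0 hours (95% interval −0.81 to 0.15, adjusted p = 0.482) and 0.07 at VILI 6 hours (−0.40 to 0.55, adjusted p = 0.860). Between the times the difference was 0.40 (−0.07 to 0.88, adjusted p = 0.564). That difference reached the call when replicate 2 of either VILI group was left out. Without VILI 0 hours replicate 2 the change at VILI 0 hours was also called, as a fall of Pycard (−0.53, adjusted p = 0.292).

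Casp1, the protease that matures IL-1β and IL-18, had 4.45, 4.30 and 4.53 FPKM in the control mice, a spread of 0.121 FPKM (SD, n = 3). It had 4.99, 6.14 and 4.16 FPKM in the VILI 0 hours mice and 5.81, 4.24 and 5.27 FPKM in the VILI 6 hours mice. In each VILI group 1 library lay below the lowest control and the other 2 above the highest. The log2 fold change was 0.18 (95% interval −0.21 to 0.57, adjusted p = 0.647) and 0.19 (−0.20 to 0.58, adjusted p = 0.548).

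Casp4 shared the order of the VILI 0 hours libraries with its neighbour Casp1, but differed from it in the order of the control and VILI 6 hours libraries. It had 6.67, 8.34 and 6.71 FPKM in the control mice, 7.41, 10.4 and 6.07 FPKM in the VILI 0 hours mice and 8.09, 16.9 and 28.8 FPKM in the VILI 6 hours mice. VILI 6 hours replicates 2 and 3 were the highest of the 9 libraries, whereas replicate 1 lay within the range of the controls. The change at VILI 0 hours was 0.11 on the log2 scale (95% interval −0.77 to 0.98). At VILI 6 hours Casp4 rose by 1.12 against control (SE 0.39, 95% interval 0.25 to 2.0, adjusted p = 0.168) and by 1.02 against VILI 0 hours (0.14 to 1.89, adjusted p = 0.440). Because the groups overlapped, the two-sided exact permutation p was 0.2 in both comparisons. Without VILI 6 hours replicate 3 the change against control was 0.69 (adjusted p = 0.372) and against VILI 0 hours 0.59 (adjusted p = 0.588), neither of which passed the test. Without VILI 6 hours replicate 1 they were 1.60 (adjusted p = 0.00547) and 1.50 (adjusted p = 0.0341), in fits that called 38.8% and 22.4% of all genes.

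Gsdmd, which encodes the pore through which IL-1β leaves the cell, had the highest mean level of the 8 genes in each group. It had 18.2, 17.2 and 17.4 FPKM in the control mice, 16.0, 18.4 and 16.6 FPKM in the VILI 0 hours mice and 18.5, 16.2 and 20.3 FPKM in the VILI 6 hours mice. The log2 fold change was −0.06 at VILI 0 hours (SE 0.11, 95% interval −0.30 to 0.19) and 0.05 at VILI 6 hours (−0.19 to 0.30), which correspond to folds from 0.811 to 1.14 and from 0.875 to 1.23. Its SE was the smallest of the 8 genes. Gsdmd passed no test in any of the 18 alternatives against control.

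The order of the FPKM levels shifted with these changes. In control it ran from Gsdmd (17.6 ± 0.540 FPKM, SD, n = 3) through Casp4 (7.24 ± 0.956), Aim2 (4.72 ± 0.579), Casp1 (4.43 ± 0.121), Pycard (2.88 ± 0.110), Nlrp3 (1.26 ± 0.119) and Nlrc4 (1.0 ± 0.157) to Nlrp12, and of neighbours in this order only Aim2 and Casp1 overlapped. In VILI 0 hours the levels of Nlrp3 (2.48 ± 0.726), Pycard (2.32 ± 0.617), Nlrp12 (1.80 ± 0.959) and Nlrc4 (0.926 ± 0.222) formed a row in which each overlapped the next. In VILI 6 hours Casp4 (17.9 ± 10.4) overlapped Gsdmd (18.4 ± 2.07) at the top, and Nlrp12 (1.10 ± 0.209) overlapped Nlrc4 (1.02 ± 0.0952) at the bottom.

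The table lists several rows for some genes, each the FPKM of 1 transcript without a transcript ID, and the rows of Aim2 moved in different directions. Row 3 of 4 had 2.27, 1.40 and 1.20 FPKM in the control mice, 0.805, 0.364 and 1.19 FPKM in the VILI 0 hours mice and 0.357, 0.267 and 0.473 FPKM in the VILI 6 hours mice. All VILI libraries were below the lowest control, VILI 0 hours replicate 3 by a narrow margin. In a fit of the 37300 rows with a mean of at least 0.1 FPKM, added after the data were seen, row 3 of Aim2 fell by 1.03 at VILI 0 hours (adjusted p = 0.436) and by 1.86 at VILI 6 hours (adjusted p = 0.180). At this level 11% and 13.2% of all rows were called. Row 1 of Aim2 had 0.0540, 0.0517 and 0.252 FPKM in the control mice, 0.376, 0.389 and 0.252 FPKM in the VILI 0 hours mice and 0.761, 0.346 and 0.310 FPKM in the VILI 6 hours mice. It rose by 1.11 (adjusted p = 0.438) and 1.42 (adjusted p = 0.285), from values near the constant added. The rise of row 1 at VILI 0 hours was called in only 8 of 16 alternatives, over which it ran from 0.26 to 1.76, and it was lost without control replicate 1 or 2, without any 1 VILI 0 hours library and without VILI 6 hours replicate 2. The rise at VILI 6 hours was no longer called without control replicate 1 (1.23), control replicate 2 (1.21) or VILI 6 hours replicate 1 (1.08). Row 4, which held 53.2% to 76.5% of the gene's FPKM, changed by 0.06 and −0.16.

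As a share of Aim2, row 3 made up between 26.6% and 42.3% in the controls, between 8.91% and 31.7% at VILI 0 hours and between 6.52% and 11.3% at VILI 6 hours. The fall of row 3 at VILI 6 hours was called in all 16 alternatives that could be run on rows, and its fall at VILI 0 hours in 6 of 16. Estimates of single transcripts share reads among rows of a gene, so a fall of 1 row and a rise of another can come from the same reads. The rise of Nlrp3 was split between its rows 2 and 3, of which neither was called in the fit of all rows. There row 2 changed by 0.61 and 1.20 (adjusted p = 0.714 and 0.381) and row 3 by 1.57 and 1.50 (adjusted p = 0.486 and 0.416). Row 2 has the highest mean, and the alternative with only the highest row of each gene called Nlrp3 at VILI 6 hours, not at VILI 0 hours. Control replicate 2 had 97.5% of its Nlrp3 in row 2, against 49.3% and 44.4% in the other controls. For Casp4, row 2 of 2 carried 90.3% to 98.8% of the FPKM and rose by 1.16 at VILI 6 hours (adjusted p = 0.321), a call lost without control replicate 1 or 3 or VILI 6 hours replicate 2 or 3 (0.71 without the last of these). Casp1, Gsdmd, Nlrc4 and Nlrp12 have 1 row each.

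**Figure D3:**
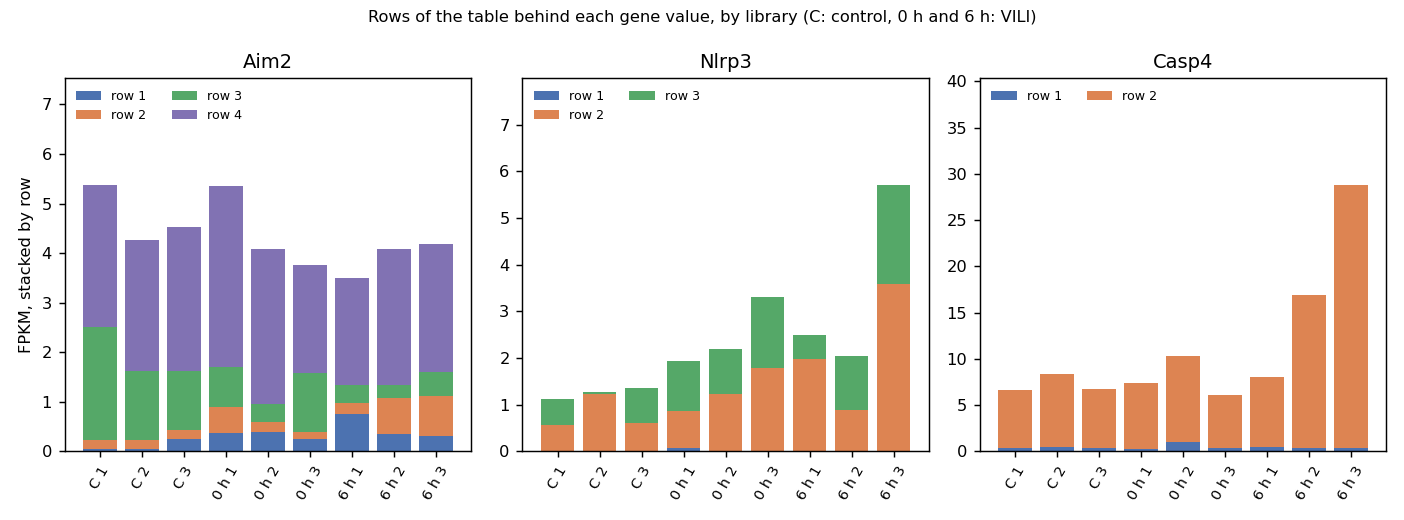
FPKM stacked by row of the table (y axis) in each library (x axis: C for control, 0 h and 6 h for the VILI groups, with the replicate number) for Aim2, Nlrp3 and Casp4. The band of Aim2 row 3 narrows from 26.6% to 42.3% of the bar in control to 6.52% to 11.3% in VILI 6 hours, while row 2 makes up at least 90.3% of each Casp4 bar.

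Markers of neutrophils, which express Nlrp12, Nlrp3 and Il1b, moved in the same comparisons. The summed FPKM of 10 neutrophil markers (S100a8, S100a9, Ly6g, Csf3r, Cxcr2, Retnlg, Mmp8, Mmp9, Ngp and Camp) was 57.4, 50.2 and 56.7 in control. It was 566, 1029 and 852 in VILI 0 hours and 468, 1021 and 2075 in VILI 6 hours. Of the 10 markers, 8 rose at VILI 0 hours and 9 at VILI 6 hours, with median log2 fold changes of 3.53 and 4.07. Of all genes tested, 6.81% and 8.17% were called upward at these times. The defining marker Ly6g was listed at 0, 0.0532 and 0 FPKM in the control mice, and its VILI values ran from 0.436 to 4.61 FPKM. Library by library, VILI 6 hours replicate 3 had the highest marker sum, the highest Nlrp3 and the highest Casp4, but its Nlrp12 (1.07 FPKM) was below that of VILI 0 hours replicate 3 (2.90 FPKM), whose marker sum was 852. The marker sum was carried by S100a8 and S100a9 (545 and 1100 FPKM in VILI 6 hours replicate 3). Of the 10 markers, 9 had their highest value in VILI 6 hours replicate 3, and Csf3r had it in VILI 0 hours replicate 3 (57.1 FPKM). How much of the rise of Nlrp12, Nlrp3 and Casp4 came with the neutrophil signal was not tested.

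**Figure D4:**
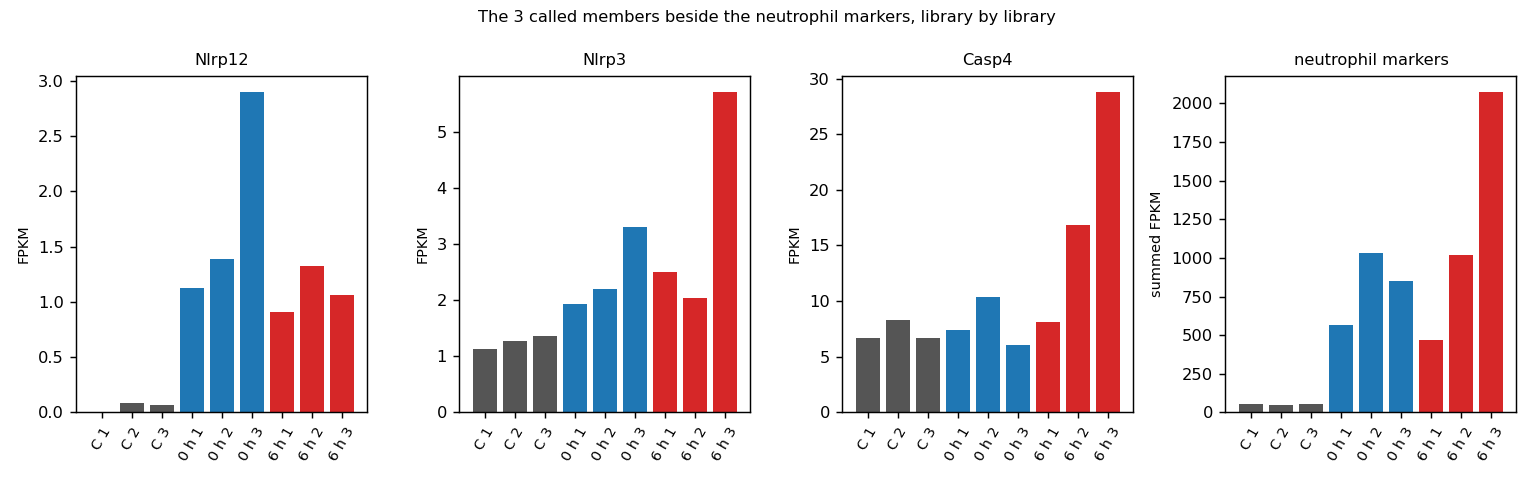
Bars of FPKM (y axis, from 0) in each library (x axis: C for control, 0 h and 6 h for the VILI groups, with the replicate number) for Nlrp12, Nlrp3, Casp4 and the sum of 10 neutrophil markers. VILI 6 hours replicate 3 has the tallest bar for Nlrp3, Casp4 and the marker sum (5.71, 28.8 and 2075) but not for Nlrp12.

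Some of the macrophage markers moved as well. Of 7 monocyte and macrophage markers 0 were called at VILI 0 hours, and Cd14, Ly6c2 and Cd68 rose at VILI 6 hours, as did 8.17% of all genes. Their summed FPKM lay between 2339 and 3938 in the 9 libraries, of which Lyz2 alone gave 2080 to 3793, so the sum says little about the others. Cd14 had 13.9 to 14.9 FPKM in the controls and 21.9, 20.6 and 152 FPKM at VILI 6 hours, with the highest value in the library that was also highest for Nlrp3 and Casp4. Ly6c2 had 7.60 to 8.67 FPKM in the controls and 14.8, 16.9 and 36.0 FPKM at VILI 6 hours. Of 6 genes listed as alveolar macrophage markers, 3 rose at VILI 0 hours (Siglecf, Mrc1 and Krt79), while at VILI 6 hours Mrc1 rose and Car4 fell. Of all genes tested, 6.81% rose at VILI 0 hours, and 8.17% rose and 12.2% fell at VILI 6 hours. Values of whole lung do not show which cells gave the signal of Car4 or Lyz2. The 6 alveolar macrophage markers summed to between 238 and 290 FPKM in the controls, between 330 and 422 FPKM at VILI 0 hours and between 247 and 625 FPKM at VILI 6 hours, with most of the sum from Chil3 and Car4 in each library. The part of these cells in the changes of Nlrp3 and Casp4 was not tested. Beside the lower Aim2 values stand those of 3 B cell markers (Ms4a1, Cd79a and Cd79b), which summed to between 33.9 and 44.2 FPKM in the controls, between 14.6 and 47.9 FPKM at VILI 0 hours and between 9.52 and 29.0 FPKM at VILI 6 hours. Of these 3, 1 fell at VILI 0 hours and 2 at VILI 6 hours, as did 9.35% and 12.2% of all genes. The part of these cells in the Aim2 values, and in the fall of its row 3, was not tested. Markers of other lung cells were called too, in either direction. At VILI 0 hours these were 2 of 6 epithelial, 1 of 4 endothelial and 2 of 4 fibroblast markers, beside 16.2% of all genes. At VILI 6 hours they were 1 of 6, 1 of 4 and 1 of 4, beside 20.4% of all genes.

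The wider pathway was read from 36 further genes, chosen by function and ordered by role, of which 32 reached the minimum level. Naip1 and Nlrp6 were under it, and Gsdma and Gsdmc were listed at 0 in all 9 libraries. In VILI 0 hours vs control 8 of the 32 rose and 1 fell, with a median log2 fold change of −0.08 over the list. In VILI 6 hours vs control 9 rose and 2 fell, with a median of 0.15. From VILI 0 hours to VILI 6 hours 3 rose and 0 fell. These are 28.1% and 34.4% of the list in the comparisons with control and 9.38% between the times, beside 16.2%, 20.4% and 10% of all genes. With each library left out in turn, 4 of the 9 calls at VILI 0 hours (Mefv, Il1b, Gsdme and Il1r2) were made in every fit. At VILI 6 hours 7 of 11 were (Mefv, Il1b, Gsdme, Ninj1, Il1r2, Nlrx1 and Ripk3), and between the times only Ripk3 of 3. Without VILI 6 hours replicate 3 the changes of Il1rn (0.56), P2rx7 (−0.34) and Naip2 (0.46) at VILI 6 hours no longer passed, and without VILI 6 hours replicate 1 those of Naip2 (0.35) and Gbp7 (−0.28) did not.

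Among the other sensors, 1 of 6 tested rose at VILI 0 hours and 2 at VILI 6 hours. Mefv, which encodes the sensor pyrin, had 0.373, 0.568 and 0.522 FPKM in the control mice, 1.43, 2.87 and 2.25 FPKM in the VILI 0 hours mice and 3.14, 3.22 and 4.90 FPKM in the VILI 6 hours mice. The 3 groups did not overlap. Mefv rose by 1.92 (adjusted p = 0.0414) and 2.70 (adjusted p = 0.0140) against control, and by 0.78 from VILI 0 hours to VILI 6 hours (adjusted p = 0.426). Naip2, a receptor that feeds NLRC4, rose by 0.49 at VILI 6 hours (adjusted p = 0.228).

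Of 5 activators, 2 rose at VILI 0 hours and 1 fell at VILI 6 hours. Txnip, a thioredoxin-binding protein, rose by 0.84 at VILI 0 hours (adjusted p = 0.235). Nek7, the kinase that licenses NLRP3, had 8.24, 8.18 and 9.26 FPKM in the control mice, 50.6, 11.2 and 52.1 FPKM in the VILI 0 hours mice and 9.59, 12.6 and 51.4 FPKM in the VILI 6 hours mice. Its VILI libraries thus split into 3 at 50.6 to 52.1 FPKM and 3 at 9.59 to 12.6 FPKM. On the log2 scale Nek7 rose by 1.85 at VILI 0 hours (adjusted p = 0.232). P2rx7, the ATP-gated channel upstream of NLRP3, fell by 0.56 at VILI 6 hours (adjusted p = 0.194), where its range overlapped that of the controls. At VILI 0 hours P2rx7 was not called (−0.46, adjusted p = 0.332), although it was below control without overlap, as were 21.6% of all genes. It was called there with only the 6 libraries compared (26.3% of all genes were) and without VILI 6 hours replicate 1 (23.2%) or 3 (20.1%). Of 4 guanylate-binding protein genes, which act upstream of caspase 11 and AIM2, 0 were called at VILI 0 hours with all 9 libraries in the fit, although all 4 were below control without overlap (log2 fold changes from −0.85 to −0.33), as were 21.6% of all genes. All 4 were called at that time in the fit of only the 6 libraries compared, where 26.3% of all genes were called, and in the fit without VILI 6 hours replicate 3, where 20.1% were. At VILI 6 hours only Gbp7 fell (−0.42, adjusted p = 0.231).

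Both cytokine substrates were called at VILI 0 hours. Il1b had 3.27, 4.48 and 4.95 FPKM in the control mice, 19.6, 32.5 and 82.7 FPKM in the VILI 0 hours mice and 26.4, 14.0 and 83.4 FPKM in the VILI 6 hours mice. Every VILI library was above the controls, and replicate 3 was the highest in both VILI groups. Il1b rose by 3.14 (adjusted p = 0.0757) and 2.88 (adjusted p = 0.0733). Il18 rose by 0.64 at VILI 0 hours (adjusted p = 0.197) and had 4.69 to 8.09 FPKM in VILI 6 hours, overlapping the control range of 4.80 to 7.09 FPKM.

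Of 3 genes for related caspases and their adaptor (Casp8, Casp12 and Fadd), 0 were called against control at either time with all 9 libraries in the fit. Casp8 (−0.29) and Fadd (−0.41) were below control without overlap at VILI 0 hours, and both were called there in the fit of only 6 libraries, beside 21.6% of all genes below control without overlap and 26.3% called in that fit. With the share of all genes in brackets, Casp8 was also called there without VILI 0 hours replicate 1 (12.9%) and Casp12 without VILI 0 hours replicate 2 (14.5%). Fadd was called at VILI 6 hours without VILI 6 hours replicate 1 (38.8%). In contrast to Gsdmd, Gsdme, another gasdermin gene, rose by 1.90 (adjusted p = 0.0344) and 1.69 (adjusted p = 0.0274). It went from 0.279, 0.307 and 0.250 FPKM in control to 1.03, 1.26 and 1.71 FPKM in VILI 0 hours and 0.894, 1.32 and 1.20 FPKM in VILI 6 hours. Its FPKM lay in different rows in different libraries, and the row with the highest mean alone gave no call. Ninj1, whose protein ruptures the membrane after gasdermin pores form, rose by 0.66 at VILI 6 hours (adjusted p = 0.133).

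Of 7 inhibitors and decoys, 2 rose at VILI 0 hours and 3 at VILI 6 hours, and the others did not pass the test with all 9 libraries in the fit. Il18bp (−0.45, adjusted p = 0.336), a decoy for IL-18, was below control without overlap at VILI 0 hours and was called there in 4 alternatives, among them the fit of only 6 libraries. Tnfaip3 (0.59) was called there in that fit and without VILI 6 hours replicate 3, and Serpinb1a (−0.46) without VILI 0 hours replicate 1. Il1r2, the decoy receptor for IL-1, had 0.261, 0.451 and 0.465 FPKM in the control mice, 9.42, 19.5 and 55.2 FPKM in the VILI 0 hours mice and 2.97, 42.9 and 93.0 FPKM in the VILI 6 hours mice. It rose by 5.50 (adjusted p = 0.0725) and 5.58 (adjusted p = 0.0587), the largest changes of the 32. Il1rn, the IL-1 receptor antagonist, rose by 1.35 (adjusted p = 0.255) and 1.30 (adjusted p = 0.216), and Nlrx1, a mitochondrial member of the NLR family, by 0.52 at VILI 6 hours (adjusted p = 0.143). Of 3 necroptosis genes, Mlkl fell by 0.51 at VILI 0 hours (adjusted p = 0.256) and rose by 0.57 from VILI 0 hours to VILI 6 hours (adjusted p = 0.412). Ripk3, the kinase that activates MLKL, rose by 0.58 at VILI 6 hours against control (adjusted p = 0.110) and by 0.61 against VILI 0 hours (adjusted p = 0.276).

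**Figure D5:**
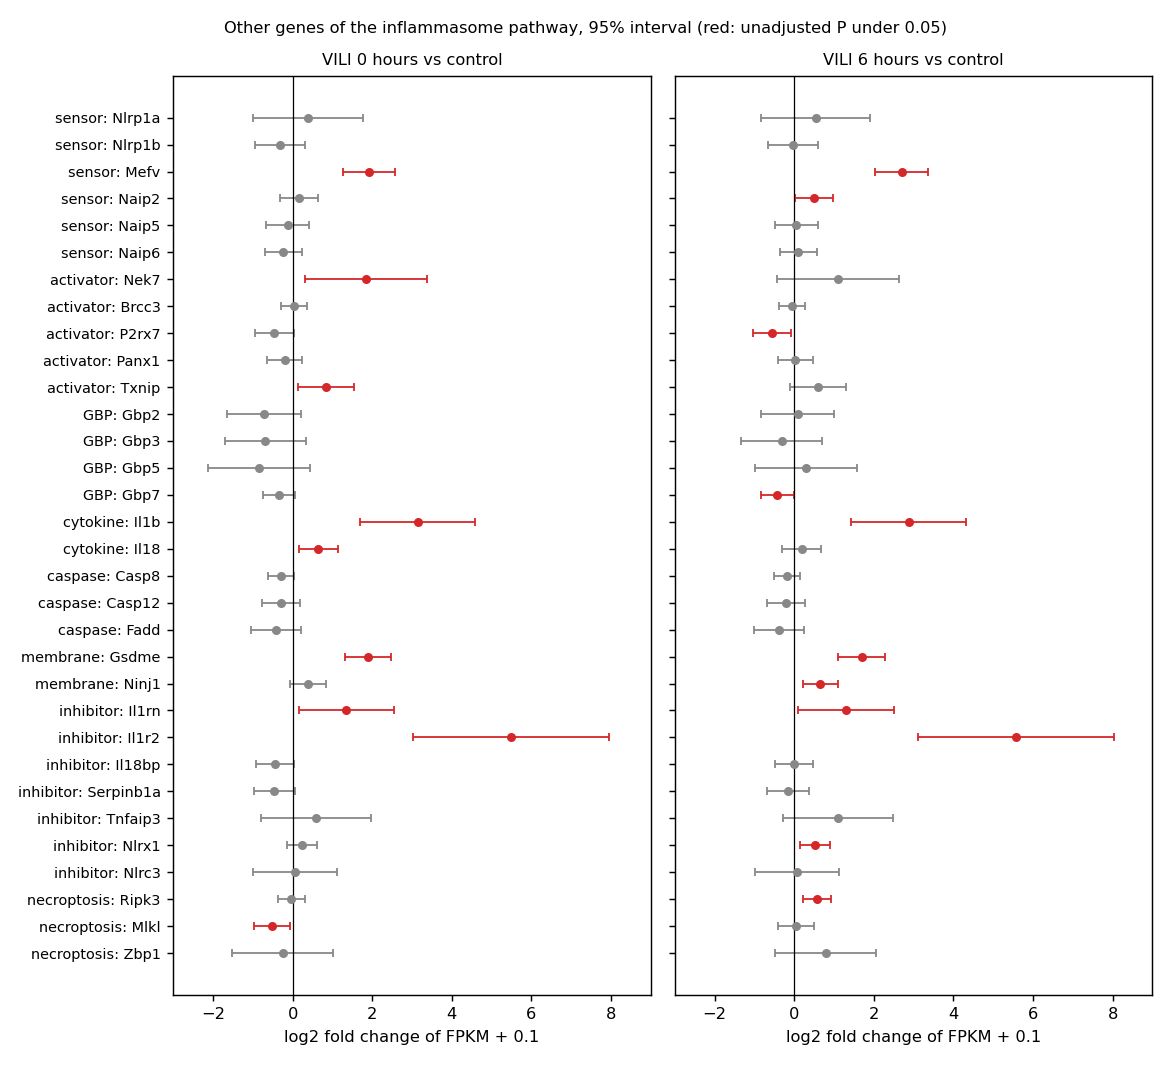
Log2 fold change of FPKM + 0.1 (x axis) with its 95% interval from limma for the 32 tested genes of the wider pathway (y axis, by role) in each comparison with control, red where the unadjusted P was under 0.05. Il1r2 and Il1b lie farthest to the right, and Mefv and Gsdme stand near 2 in the left panel.

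As a description, the genes whose log2(FPKM + 0.1) followed each inflammasome gene most closely over the 9 libraries were listed from 14102 genes with a mean of at least 1 FPKM, with Pearson's r. The libraries share groups and a per-library scale, so a high r can come from the group means alone. For Nlrp12 they were Tmem154 (0.984), Trpm2 (0.984) and Dclre1b (0.980), and for Nlrp3 they were Cxcl2 (0.976), Gm15832 (0.973) and Fth1 (0.970). For Casp4 they were Tpm3-rs7 (0.973), Rnd1 (0.970) and Anxa7 (0.970). Rnd1 had 3.85 to 4.98 FPKM in the control mice and then 5.69, 13.9 and 30.5 FPKM in the VILI 6 hours mice, with the same order of libraries as Casp4 within each VILI group but not among the controls. For Aim2 they were Mzb1 (0.970), Blnk (0.937) and Traf3ip3 (0.917), and for Nlrc4 they were Magohb (0.897), Bhlhe41 (0.892) and XLOC_050300 (0.879). For Pycard the list held Ctsc (0.937), Alpk1 (0.933) and Ifngr2 (0.924), for Casp1 Mpeg1 (0.948), Plbd1 (0.918) and Gng10 (0.905), and for Gsdmd Ikbke (0.968), Ripk2 (0.965) and Ptprc (0.954).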

How the data were processed

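RNA-Seq of 9 lung libraries, 3 per group, was read from a table of FPKM deposited by the authors, who aligned reads with TopHat2 2.0.9 and Bowtie2 2.0.6 to GRCm38 and estimated FPKM per transcript with Cuffdiff 2.1.1, per the labels. It held 60108 rows under 27203 gene IDs, of which 12500 rows were 0 in all libraries. The study lists the total reads of each library, but the table holds no read counts per gene, so no counting interval is given. The number of libraries limits the precision. Each sample was grouped by its treatment label.

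Of 23713 Ensembl IDs, 23580 matched GENCODE M21. FPKM were summed over the rows of a gene and tested as log2(FPKM + 0.1) in limma 3.58.1 under R 4.3.3, by linear models with moderated variances that follow the mean level, in 1 fit of the 9 libraries, over 19378 genes with a mean FPKM of at least 0.1. The script was tested on simulated data. Exact permutation tests were two-sided. P-values, and differences between libraries of separate mice, measure only the spread among 3 mice. The 8 genes and the lists of pathway genes and markers were chosen with earlier results of these data known, and some genes of the lists are not reported here. By rule the genes named were the 8, every pathway gene called in a comparison, and the 3 genes most alike each of the 8. Cell markers, pathway genes under the minimum level, Casp8, Casp12, Fadd, Il18bp, Tnfaip3, Serpinb1a and the 3 guanylate-binding protein genes that were not called were described outside that rule, after their values were seen. The labels name a TruSeq kit and the study's methods a directional kit, so it is open whether strand was used.

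The alternatives tried were a constant of 0.01 or 1, a higher filter (mean FPKM of 1 or more) or none, centring on library medians, a fit of 6 libraries, a replicate block, variances without a trend, the highest row of each gene, and leaving out each library. Replicate numbers did not pair the libraries: deviations of same-numbered libraries from their group means correlated by −0.22 to 0.02. Other tools were Python 3.11.15, pandas 2.3.3, numpy 2.4.6, scipy 1.17.1 and matplotlib 3.10.9.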

Additional observations from a re-analysis of the deposited data

Results flagged for a closer look

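Between the VILI groups, 1 of the 8 inflammasome genes (Casp4) and 3 genes of the wider pathway list (Mefv, Ripk3 and Mlkl) had changes against the common control group that differed by the test of VILI 6 hours vs VILI 0 hours itself (unadjusted P under 0.05 in limma). Casp4 differed by 1.02 on the log2 scale (adjusted p = 0.440), with VILI 6 hours replicate 1 inside the range of VILI 0 hours. Mefv differed by 0.78 (adjusted p = 0.426), with the groups not overlapping. Ripk3 differed by 0.61 (adjusted p = 0.276), with 2.49, 2.38 and 2.14 FPKM in the VILI 0 hours mice and 3.84, 3.14 and 3.88 FPKM in the VILI 6 hours mice. Mlkl differed by 0.57 (adjusted p = 0.412), with 3.09, 3.93 and 2.64 FPKM and then 4.53, 3.85 and 6.15 FPKM. After adjustment 0 of these 4 passed, and 0 of all 19378 genes did, where 1938 had an unadjusted P under 0.05.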

How the results depend on the processing

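Over 18 alternatives, Nlrp12 was called against control at both times in each of the 17 that could test it, with adjusted p from 0.00206 to 0.159 at VILI 0 hours and from 0.00258 to 0.143 at VILI 6 hours, and Nlrp3 at VILI 6 hours in all 18 (adjusted p from 0.0349 to 0.309). Casp4 at VILI 6 hours was called in 17 of 18, and against VILI 0 hours in 13 of 18. Of the inflammasome genes in VILI 0 hours vs control, 1 was called with a constant of 1 (Nlrp12), 1 with a mean FPKM of at least 1 (Nlrp3, since Nlrp12 and Nlrc4 fell under that filter) and 1 with the row of highest mean (Nlrp12). Between the times 0 were called with only the 6 libraries compared, where 6.24% of all genes were. Of the wider pathway list, 19 genes were called at VILI 0 hours with only the 6 libraries (26.3% of all genes were) and 4 with the row of highest mean (14% of all genes), which gave 6 at VILI 6 hours (17.8% of all genes). Centring turned Nlrc4 (0.00106), Aim2 (0.00615) and Gsdmd (0.0592) at VILI 0 hours, and the row of highest mean turned Aim2 (0.0584). The causes were not tested.

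With each library left out in turn, 1 to 2, 2 to 3 and 0 to 2 of the 8 genes were called at VILI 0 hours, at VILI 6 hours and between the times, and 4 to 17, 7 to 14 and 2 to 13 of the pathway list. In the same fits 10.2% to 23.2%, 13.1% to 38.8% and 7.26% to 22.4% of all genes were called, the highest share each time without VILI 6 hours replicate 1. The call of Nlrp3 at VILI 0 hours was lost without any 1 control library and without VILI 0 hours replicate 2 or 3, and that of Casp4 between the times without VILI 0 hours replicate 1 or 3 or VILI 6 hours replicate 2 or 3. With the share of all genes called in brackets, the pathway count at VILI 0 hours was 4 without control replicate 1 (10.8%), 5 without VILI 0 hours replicate 3 (11.2%) and 17 without VILI 6 hours replicate 3 (20.1%). At VILI 6 hours it was 7 without control replicate 1 (14.4%) or 2 (13.1%). Between the times it was 8 without VILI 0 hours replicate 2 (7.38%), and 13, 5 and 6 without VILI 6 hours replicates 1, 2 and 3 (22.4%, 9.84% and 9.68%). Values near zero changed sign: Nlrc4 ran from −0.26 to 0.056, −0.085 to 0.11 and −0.017 to 0.30 in the 3 comparisons, Casp4 at VILI 0 hours from −0.10 to 0.28, Pycard at VILI 6 hours from −0.033 to 0.22, Gsdmd at VILI 6 hours from −0.023 to 0.14, and between the times Nlrp3 from −0.091 to 0.63 and Casp1 from −0.13 to 0.15.

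With the replicate block, 2, 3 and 1 of the 8 genes and 8, 10 and 3 of the pathway list were called, beside 14.5%, 18% and 8.74% of all genes. It ended the calls of Mlkl at VILI 0 hours (−0.51, adjusted p = 0.364) and Naip2 at VILI 6 hours (0.49, adjusted p = 0.320). It did so also for row 1 of Aim2 at VILI 0 hours (1.11, adjusted p = 0.566).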
